A study of Mus musculus with 4 samples.

Results

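The cells described here were CD4 T cells with transcripts of Cxcr3, a chemokine receptor of T helper 1 (Th1) cells, from the meninges and the choroid plexus (CP) of young and aged mice. They were chosen by their counts. A cell needed 200 to 7000 genes, at most 5% mitochondrial UMIs, a UMI (1 counted transcript molecule) of Cd3d, Cd3e or Cd3g, a UMI of Cd4 and none of Cd8a or Cd8b1. It also needed at least 1 UMI of Cxcr3, and none of Foxp3, Tnfsf8 (the gene of CD153), Gzmk or Ccr7. The rule found 150 cells among 1019 CD4 T cells and 4801 cells in all, and they are called Cxcr3+ Th1-like cells below.

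The study asked how T cells at the borders of the brain change with age. T cells bearing CD4 or CD8 were taken by flow cytometry from untreated female C57BL/6 mice and profiled with droplet single-cell RNA-seq that reads the 5′ ends of transcripts. There were 4 libraries, each pooled from 5 mice: meninges and CP at 10 weeks (young) and meninges and CP at 18 months (aged). Each age and tissue therefore had 1 library, and differences between ages are given below without a test. Whether the meninges and the CP of an age came from the same mice was not stated in the sources used here.

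Th1 cells are the CD4 T cells that make interferon-γ, and T-bet, the product of Tbx21, is the transcription factor that directs their fate under interleukin-12 and Stat4. Cxcr3 binds chemokines that interferon-γ induces, and it brings Th1 cells into inflamed tissue. In the tissues around the brain, memory T cells with this program are part of local immune surveillance.

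The Cxcr3+ Th1-like cells numbered 29 in young meninges, 16 in young CP, 78 in aged meninges and 27 in aged CP. Their summed UMIs were 106736, 53911, 198027 and 87785 in the same order, so a gene in young CP rested on the fewest counts. The median cell had 3395, 3200, 2135 and 3013 UMIs, and aged meninges was thus the shallowest library per cell. Of the 150 cells, 76 had 1 Cxcr3 UMI, 46 had 2 and 28 had 3 or more. Cxcr3 lies at chrX:101731535-101734269 (minus strand, mouse build GRCm38, which is mm10).

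A cell can express Cxcr3 and yield no UMI of it, so the threshold is given with the values on both sides. Just inside the threshold, among the 76 cells with 1 Cxcr3 UMI, Nkg7 was detected in 48.7% and Ccl5 in 55.3%. Just outside it, among the 261 otherwise alike CD4 T cells with no Cxcr3 UMI, these shares were 18.8% and 27.2%. Among the 74 cells with 2 or more Cxcr3 UMIs they were 55.4% and 58.1%. The other markers did not share one pattern. With no Cxcr3 UMI, 1 UMI and 2 or more, the shares were 9.20%, 13.2% and 17.6% for Tbx21, 6.13%, 25% and 16.2% for Ly6c2 and 3.45%, 19.7% and 10.8% for Ifng, so Ly6c2 and Ifng were found most often in cells with 1 UMI. These shares came at median depths of 2519 UMIs in cells without Cxcr3, 2567 in cells with 1 UMI and 3137.5 in the others.

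The exclusions removed a larger part of the aged than of the young cells. Before them, Cxcr3+ CD4 T cells numbered 46 in young meninges, 25 in young CP, 165 in aged meninges and 81 in aged CP. The 4 genes then took out 17, 9, 87 and 54 cells. Tnfsf8 was the most frequent reason in aged meninges (48 cells) and aged CP (23 cells), while Gzmk was found in 25 and 20 of these aged cells and Foxp3 in 27 and 10.

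Cxcr3+ Th1-like cells made up 11.2% of CD4 T cells in young meninges (exact 95% binomial interval 7.60 to 15.6), 9.64% in young CP (5.61 to 15.2), 21.5% in aged meninges (17.4 to 26.1) and 11.7% in aged CP (7.85 to 16.5). These intervals cover counting error only, not differences between mice. The aged meninges stood above the other 3 libraries, whose intervals overlapped each other. The aged share was 10.4 points above the young share in meninges and 2.05 points above it in CP. The denominators differed in make-up. CD4 T cells with Ccr7 and none of Cxcr3, Foxp3, Tnfsf8 or Gzmk are called naive-like below. They were 132 of 260 CD4 T cells in young meninges and 88 of 166 in young CP. In aged meninges they were 16 of 362 and in aged CP 12 of 231. The part of this difference in the aged and young shares was not tested. When each CD4 T cell was thinned to 1000 UMIs before the gate, the shares were 9.26%, 5.71%, 17.4% and 11%. The interval of aged meninges was then 12.1 to 24.0. It overlapped those of young meninges (4.53 to 16.4), young CP (1.58 to 14.0) and aged CP (5.62 to 18.8). Of all T cells the shares were 2.83%, 2.55%, 5.54% and 2.46%, and in CP the aged minus the young share was then -0.0951 points. Without the exclusions, Cxcr3+ cells were 17.7%, 15.1%, 45.6% and 35.1% of CD4 T cells, and both aged libraries stood above both young ones.

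**Figure D1:**
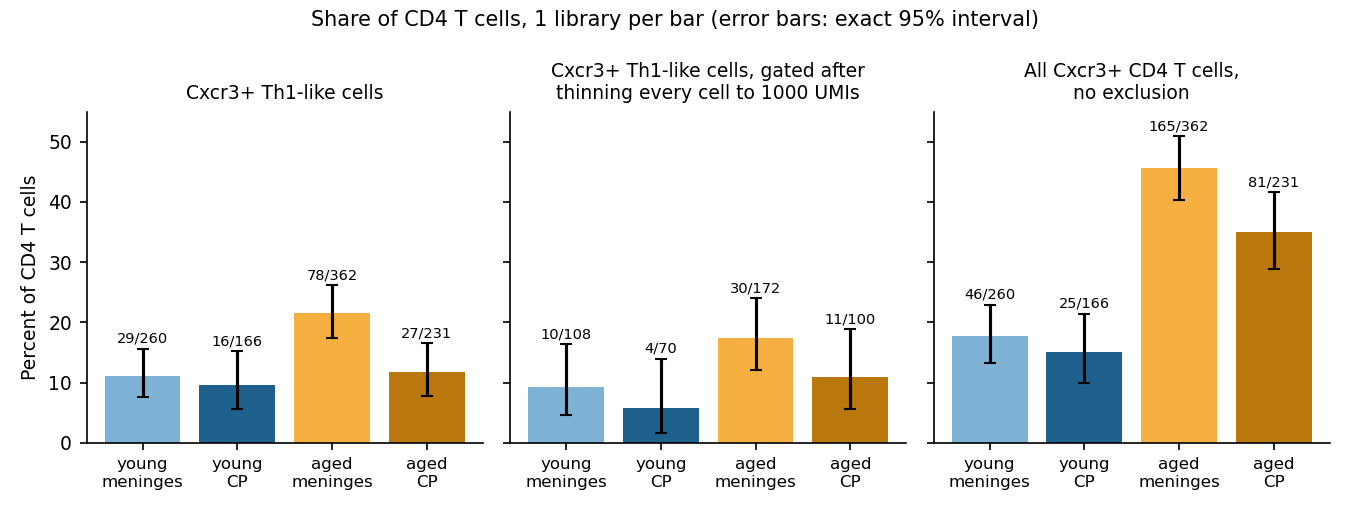
Share of CD4 T cells in percent for each library, with the number of cells above each bar and exact 95% binomial intervals as error bars: Cxcr3+ Th1-like cells, the same gate after thinning each cell to 1000 UMIs, and all Cxcr3+ CD4 T cells with no exclusion. With the exclusions the aged meninges stood highest at 21.5%, and without them aged meninges (45.6%) and aged CP (35.1%) both stood above the young libraries. The denominators included naive-like cells, of which the aged libraries held fewer.

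The cells were chosen with earlier results of these data known, so a check of the Th1 label was not independent of those results. The label was checked against 4 further markers that the rule did not use: Ly6c2, Ccl5, Tbx21 and Ifng. At least 1 of them was detected in 105 of the 150 cells (70%), against 84 of 261 Cxcr3-negative counterparts (32.2%) and 17 of 248 Ccr7+ naive-like CD4 T cells (6.85%). By library the share in Cxcr3+ Th1-like cells was 89.7% in young meninges, 75% in young CP, 65.4% in aged meninges and 59.3% in aged CP. In the counterpart it was 19.4%, 15.8%, 44.2% and 37.3%, so the gates lay closer in the aged libraries. None of the 4 markers was detected in 45 cells, 59 cells had 1, 35 had 2, 11 had 3 and no cell had all 4. The markers were therefore spread over the cells of the gate, and none of the 4 was found in all of its cells. Tbx21 and Ifng, the 2 genes that define Th1 cells, were each found in 23 of the 150 cells. Th1-like is thus a name for the gate and was not shown for each cell in it.

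Ccl5, a chemokine of memory and cytotoxic T cells (chr11:83525778-83530518, minus strand), was the most widely detected marker, in 72.4% of the cells of young meninges, 62.5% of young CP, 52.6% of aged meninges and 48.1% of aged CP. Its share in naive-like cells was 5.30%, 3.41%, 18.8% and 0%, from 26, 17, 28 and 0 UMIs. Whether free RNA or naive-like cells that express Ccl5 gave these UMIs was not tested. The highest of these naive-like shares came from a gate of 16 cells. Tbx21 (chr11:97098071-97115331, minus strand) was detected in 34.5%, 12.5%, 11.5% and 7.41% of Cxcr3+ Th1-like cells and in at most 3.03% of naive-like cells. Its share in young meninges was the highest of the 4 libraries.

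Ifng (chr10:118441046-118445892, plus strand), the defining cytokine of Th1 cells, was found in 13.8%, 6.25%, 20.5% and 7.41% of Cxcr3+ Th1-like cells and in no naive-like cell. Ly6c2, which encodes a form of the surface antigen Ly6C (chr15:75108158-75111970, minus strand), was detected in 51.7%, 18.8%, 11.5% and 14.8%, against 0.758%, 1.14%, 6.25% and 8.33% of naive-like cells. Thinned to 1000 UMIs, its shares were 41.4%, 12.5%, 10.5% and 3.70%. Young meninges had the highest share of Ly6c2+ cells at either depth. The median naive-like cell had 3238, 2838.5, 3081 and 2584 UMIs.

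**Figure D2:**
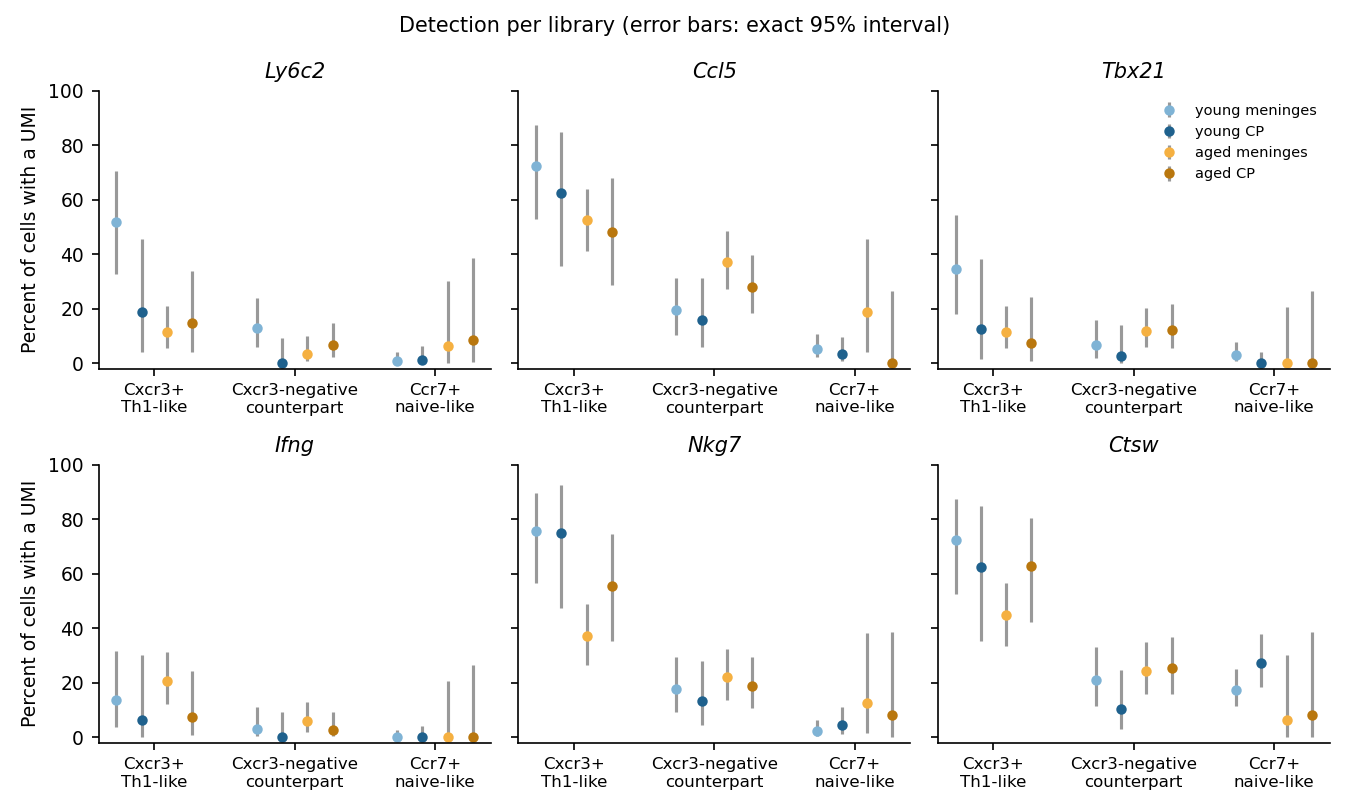
Percent of cells with at least 1 UMI of 6 genes, by library, in Cxcr3+ Th1-like cells, the Cxcr3-negative counterpart and Ccr7+ naive-like CD4 T cells, with exact 95% intervals as error bars. For Ccl5 the 4 libraries of Cxcr3+ Th1-like cells ran from 48.1% to 72.4%, above the 15.8% to 37.2% of the counterpart, while for Tbx21 the libraries of the 2 gates overlapped.

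Ly6c2 and Ccl5 did not mark the same cells throughout. Both were detected in 20 cells, Ly6c2 alone in 11, Ccl5 alone in 65 and neither in 54. In young meninges 11 of 29 cells had both, against 6 of 78 in aged meninges. Among the 85 cells with Ccl5, 21 also had Tbx21 (24.7%), against 2 of the 65 without Ccl5 (3.08%). These pooled shares mix libraries that differ in both genes. Library by library, Tbx21 was in 8 of 21, 2 of 10, 9 of 41 and 2 of 13 cells with Ccl5, and in 2 of 8, 0 of 6, 0 of 37 and 0 of 14 without it. Nkg7, a granule membrane protein of cytotoxic lymphocytes, was in 85.7%, 80%, 56.1% and 69.2% of cells with Ccl5 and in 50%, 66.7%, 16.2% and 42.9% of those without. The share was higher with Ccl5 in each library for both genes, although the groups without Ccl5 held only 8 and 6 cells in the young libraries. Ifng and Cd40lg, the helper ligand of B cells, differed in direction between libraries. The median depth with and without Ccl5 was 3482 and 3223.5 UMIs in young meninges, 2945.5 and 3328.5 in young CP, 2545 and 1913 in aged meninges and 3037 and 2937.5 in aged CP, and the part of depth in these contrasts was not tested.

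The cells were then compared with CD4 T cells that passed the same gate but had no Cxcr3 UMI (62, 38, 86 and 75 cells). UMIs were summed per library and gate, and the sums of the 4 libraries were tested with edgeR's quasi-likelihood test with the library as a block, so that each library was its own control. The 4 libraries served as replicates although they differ in age and tissue. Of 2808 genes tested, 17 were higher in Cxcr3+ Th1-like cells (0.605%) and 23 were lower (0.819%) at a Benjamini-Hochberg adjusted p under 0.05. Of these 40 genes, 31 had the same sign in all 4 libraries. For 20 the levels of the 2 gates did not overlap, as was so for 5.38% of all genes tested. The counts leaned on the meninges, since 7 genes were higher and 7 lower without young meninges, and 13 and 10 without aged meninges. Most calls also rested on the test used, since DESeq2 called 3 of the 40 genes and edgeR without the library block called 2, with each gene that could be tested in the same direction.

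Ly6c2 and Ifng were the members of the Th1 list that rose. Ly6c2 stood at 946, 501, 333 and 148 CPM (UMIs of a gene scaled to the same total in every sum) in young meninges, young CP, aged meninges and aged CP, against 280, 0, 24.3 and 102 CPM in the Cxcr3-negative cells. It was higher in 4 of 4 libraries, with a log2 fold change of 2.10 ± 0.32 (SE, n = 4 libraries, edgeR adjusted p = 0.000125), and the least apart in aged CP. It passed the test with any 1 library left out. Part of its reads may belong to its near copy Ly6c1, which was itself at 206, 0, 15.1 and 11.4 CPM in Cxcr3+ Th1-like cells and at 106, 175, 97.3 and 50.8 CPM in the counterpart.

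Ifng was at 93.7, 18.5, 167 and 22.8 CPM against 10.6, 0, 34.0 and 15.2 CPM. Its log2 fold change was 2.14 ± 0.54 (edgeR adjusted p = 0.0336), and both CP libraries held only 1 or 2 Ifng UMIs in Cxcr3+ Th1-like cells. Without either meninges library Ifng had too few counts to be tested. Of the 20 genes of the Th1 list, 10 had enough counts to be tested, of which 2 were higher, none was lower and 7 had a positive fold change. The median of the list was 0.63 on the log2 scale, beside 0.00 over all genes tested. This list had been drawn up with earlier results of these data known.

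Ccl5 did not pass the test. Its level was 2548, 1855, 1858 and 2176 CPM against 1573, 280, 3254 and 1274 CPM, so in aged meninges the Cxcr3-negative cells had more of it (log2 fold change 0.51 ± 0.24, edgeR adjusted p = 0.430). Single cells weighed on these sums in both gates. Among Cxcr3+ Th1-like cells 1 cell of young meninges held 116 of 272 Ccl5 UMIs and 1 of aged CP held 110 of 191. In the counterpart 1 cell of young meninges held 187 of 298, 1 of young CP 20 of 32 and 1 of aged meninges 221 of 669. Runx3, a transcription factor that works beside T-bet, was at 93.7, 185, 131 and 148 CPM against 68.6, 70.0, 87.5 and 60.9 CPM, higher in each library with no overlap, and missed the threshold (0.75 ± 0.29, edgeR adjusted p = 0.258). Xcl1, a chemokine for cross-presenting dendritic cells (1.22, edgeR adjusted p = 0.0842), Tnf (0.91), Il18r1 (-0.17), Bhlhe40 (-0.13) and Stat4 (-0.08) also missed it.

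The other 10 genes of the list, Tbx21 among them, had too few counts for the test. Tbx21 had 14, 3, 10 and 2 UMIs in the 4 libraries of Cxcr3+ Th1-like cells and 6, 1, 12 and 11 in the counterpart, that is 131, 55.6, 50.5 and 22.8 CPM against 31.7, 8.75, 58.4 and 55.9 CPM. The young libraries had more of it than their counterparts and the aged libraries less. Il12rb1, Il12rb2, Il18rap, Il2, Ccl3, Ccl4 and Fasl had 0 to 29 UMIs over all Cxcr3+ Th1-like cells. Hlx had none in either gate.

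Ctsw and Nkg7, both of the cytotoxic list, rose. Ctsw, a protease of cytotoxic lymphocytes, was at 553, 297, 348 and 513 CPM against 153, 96.3, 131 and 234 CPM (log2 fold change 1.37 ± 0.20, edgeR adjusted p = 6.47e-05). Nkg7 was at 721, 853, 394 and 627 CPM against 317, 114, 336 and 239 CPM (1.10 ± 0.22, edgeR adjusted p = 0.00377). For both genes the lowest library of Cxcr3+ Th1-like cells lay above the highest of the counterpart, with a narrow gap for Nkg7 in aged meninges. These were the 2 genes that rose among 4 tested of the 18 of the cytotoxic list.

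Il2rb, the chain shared by the receptors of interleukin-2 and interleukin-15, was at 750, 445, 359 and 262 CPM against 137, 78.8, 199 and 208 CPM (1.31 ± 0.24, edgeR adjusted p = 0.00165). Cxcr6, the receptor of the membrane-bound chemokine Cxcl16, was at 778, 371, 449 and 501 CPM against 296, 236, 258 and 289 CPM (0.84 ± 0.18, edgeR adjusted p = 0.00898). Cxcr6 and Itgb1, an integrin chain (0.82 ± 0.19, edgeR adjusted p = 0.0230), were the 2 genes that rose of 10 tested in the residency list, whose median was 0.74. None of the 3 genes overlapped between the gates.

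Among 16 genes of an effector memory list, Il2rb alone passed the test, although 14 had a positive fold change and the median was 0.40. Ly6a, which encodes the interferon-induced surface antigen Sca-1, was the 1 gene of 13 interferon-stimulated genes tested that rose (0.74 ± 0.17, edgeR adjusted p = 0.0214). Beyond the lists, AW112010 (1.06), the mitochondrial chaperone gene Dnajc15 (0.90), the desmosome plaque gene Pkp3 (0.89) and Epsti1 (0.84) rose in all 4 libraries. Among the genes that rose, Ifitm1, Stmn1 and Ube2c each had over 33% of their UMIs in 1 cell.

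Of 14 tested genes of naive T cells and of tissue exit, 8 were lower in Cxcr3+ Th1-like cells, none had a positive fold change and the median was -1.47. Klf2, a transcription factor that keeps exit receptors of T cells switched on, was at 215, 18.5, 146 and 114 CPM against 940, 683, 608 and 391 CPM (-2.37 ± 0.23, edgeR adjusted p = 1.75e-08). It was lower in 4 of 4 libraries with no overlap. Igfbp4, an insulin-like growth factor binding protein typical of naive T cells, had 2 UMIs in all Cxcr3+ Th1-like cells, both in aged CP, against 591, 376, 92.4 and 142 CPM (-5.70 ± 0.51, edgeR adjusted p = 3.14e-09).

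Tcf7, a transcription factor of naive and long-lived T cells, was at 159, 186, 182 and 114 CPM against 359, 551, 195 and 193 CPM (-0.96 ± 0.24, edgeR adjusted p = 0.0320), and aged meninges differed least. Its relative Lef1 was at 65.6, 74.2, 45.4 and 114 CPM against 375, 613, 72.9 and 76.2 CPM (-1.73 ± 0.35, edgeR adjusted p = 0.00485). Its fall rested on 3 libraries, since in aged CP the Cxcr3+ Th1-like cells were higher. Without young meninges neither Tcf7 (-0.83, edgeR adjusted p = 0.369) nor Lef1 (-1.33, edgeR adjusted p = 0.203) passed the test. Nsg2 (-1.75), the chromatin organiser Satb1 (-1.48), Klf3 (-1.46) and the tetraspanin Tspan32 (-0.89) were lower in all 4 libraries, and S1pr1, the exit receptor itself, missed the threshold (-0.49, edgeR adjusted p = 0.489).

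The Cxcr3-negative gate can hold naive cells in which Ccr7 was missed, and its cells had more ribosomal protein transcripts in the young libraries. The median ribosomal share was 23.2% in young meninges and 24.1% in young CP for Cxcr3+ Th1-like cells, against 30.3% and 36.4% in the counterpart, while in aged meninges (25.7% and 25.2%) and aged CP (28.5% and 29.6%) the gates were close. Of the 23 genes that fell, 5 encoded ribosomal proteins. Limiting the counterpart to cells with S100a4, a gene of memory T cells, left 15, 7, 34 and 39 cells. The Cxcr3+ Th1-like cells were not limited in this way. With these cells edgeR called 0 genes higher and 2 lower of 1737, with 107 at an unadjusted p under 0.05. Klf2 was 1 of these 2 (-1.78, edgeR adjusted p = 0.00179) and Il17a the other. Ly6c2 (1.67, edgeR adjusted p = 0.136) and Ctsw (1.14, edgeR adjusted p = 0.166) kept their direction there, and Tcf7 (-0.01) and Lef1 (-0.01) were near 0. The part of the smaller counterpart in the lost calls was not tested.

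Other genes that fell were Ppp1r15a (-1.47) and Nfkbia (-0.97), feedback genes of the stress and NF-κB responses, Ramp1 (-1.09), a subunit of the receptor of the neuropeptide CGRP, and Crlf3 (-1.09). Areg, the growth factor amphiregulin, fell by 2.04 on the log2 scale, but 33 of the 84 UMIs of the counterpart lay in 1 cell. Il17a, the cytokine of Th17 cells, fell by 1.76 on that scale, yet only 3 counterpart cells and 1 Cxcr3+ Th1-like cell had it, and 77 of 89 counterpart UMIs were in 1 cell. These were the only called genes of the Th2 list (of 2 tested) and of the Th17 list (of 4 tested). None of 6 tested genes of the regulatory T cell list, and none of 6 of the follicular helper and exhaustion list, was called here.

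**Figure D3:**
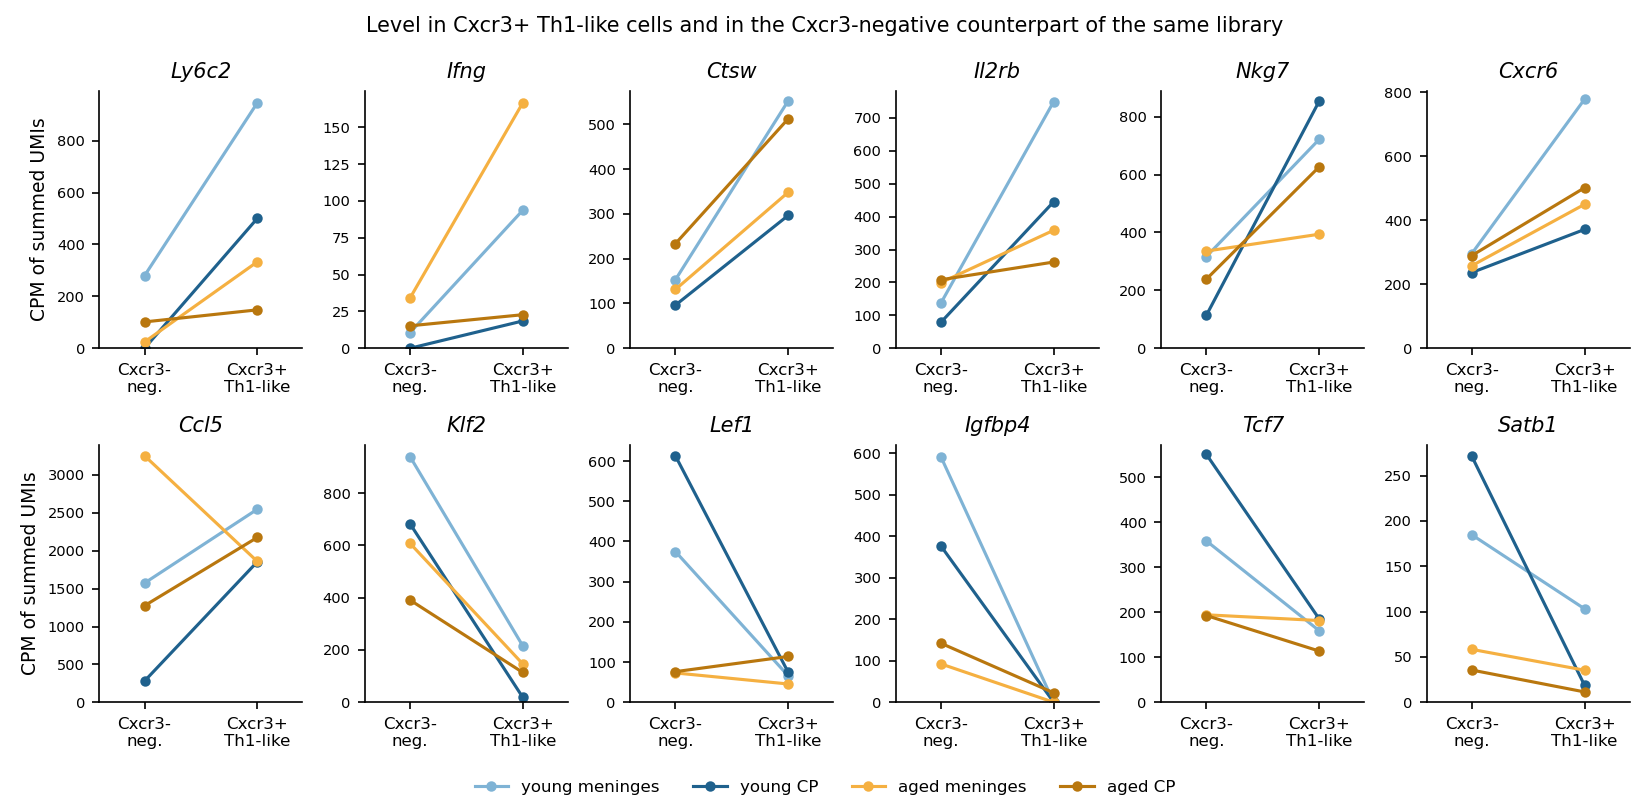
CPM of summed UMIs in the Cxcr3-negative counterpart (left) and in Cxcr3+ Th1-like cells (right) of each library for 12 genes, with 1 line per library. The lines of Ly6c2, Ctsw, Il2rb, Nkg7 and Cxcr6 rise and those of Klf2, Igfbp4, Tcf7 and Satb1 fall in all 4 libraries, while Ccl5 falls in aged meninges and Lef1 rises in aged CP.

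A second comparison set the Cxcr3+ Th1-like cells against CD153-expressing (Tnfsf8+) CD4 T cells without Foxp3, Gzmk or Ccr7 (8, 6, 65 and 49 cells). Cxcr3 was not part of that gate, and 4, 2, 31 and 16 of these Tnfsf8+ cells had a Cxcr3 UMI. All 3 comparisons use the same sums of the Cxcr3+ Th1-like cells, so they are not independent. Of 1863 genes tested, 11 were higher in Cxcr3+ Th1-like cells (0.59%) and 21 were lower (1.13%). Only 14 of these 32 genes had the same sign in all 4 libraries, and the levels of the gates did not overlap for 6, as for 4.03% of all genes tested. Both young libraries held fewer than 10 Tnfsf8+ cells, and without young meninges 4 genes were higher and 3 lower. DESeq2 called 3 of the 32 genes, and edgeR without the library block called 0, with 83 genes at an unadjusted p under 0.05.

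Ly6c2 was higher here too, against 317, 49.4, 38.3 and 32.9 CPM in Tnfsf8+ cells (2.27 ± 0.30, higher in 4 of 4 libraries, edgeR adjusted p = 4.40e-06). Ctsw was at 444, 198, 147 and 132 CPM in those cells (1.15 ± 0.26, edgeR adjusted p = 0.0107) and Nkg7 at 402, 543, 338 and 105 CPM (1.01 ± 0.26, edgeR adjusted p = 0.0293), both lower than in the Cxcr3+ Th1-like cells of each library. Cxcr6 also rose (0.80, edgeR adjusted p = 0.0451), in 3 of 4 libraries. Ifng missed the threshold and was lower in 3 of 4 libraries (-0.47 ± 0.43, edgeR adjusted p = 0.911), and Ccl5 missed it at 0.52 ± 0.20 (edgeR adjusted p = 0.300). Of 10 tested genes of the Th1 list, 1 was higher (Ly6c2), 1 was lower (Ccl4) and 4 had a positive fold change. The median of the list was -0.21, beside 0.00 over all genes tested. Gm42418 (0.72) and the mitochondrial leucyl-tRNA synthetase gene Lars2 (0.69) were also higher in all 4 libraries.

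Some receptors of regulatory, follicular helper and exhausted T cells were lower than in Tnfsf8+ cells. Tnfrsf4, the costimulatory receptor OX40, was at 56.2, 18.5, 242 and 205 CPM against 402, 0, 402 and 783 CPM (-1.45 ± 0.28, edgeR adjusted p = 0.00230), lower in 3 of 4 libraries. Tigit, an inhibitory receptor, was lower too (log2 fold change -1.35, edgeR adjusted p = 0.0115). These were the 2 called genes of 6 tested in the regulatory T cell list. Slamf6 (-1.38, edgeR adjusted p = 0.0163), Pdcd1, which encodes PD-1 (-1.23, edgeR adjusted p = 0.0217), and the folate receptor family gene Izumo1r (-0.98, edgeR adjusted p = 0.0407) fell as well, 3 of 7 tested genes of the follicular helper and exhaustion list. In young CP Pdcd1 was higher, at 37.1 against 0 CPM, and Tigit had no UMI in either gate. The median log2 fold change was -0.64 over the first list and -1.23 over the second.

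Tnfsf11, the ligand RANKL (-1.73), the glucose uptake regulator Tbc1d4 (-1.55), Gstp3 (-1.44) and Ptms (-1.22) were lower in all 4 libraries. Bhlhe40 was at 46.8, 55.6, 90.9 and 114 CPM against 106, 148, 249 and 197 CPM, lower in each, and narrowly missed the threshold (-1.18 ± 0.33, edgeR adjusted p = 0.0543). The chemokine gene Ccl4 was called lower (-4.60), but 348 of its 396 UMIs in Tnfsf8+ cells came from 1 cell. The same held for Ccl1, Spp1, Sostdc1, Penk and the receptor gene Trbv16 among the lower genes and for Ifitm1 and Hist1h2ap among the higher ones, each with over 33% of its UMIs in 1 cell.

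The last comparison used CD8 T cells with Cxcr3 under the same exclusions (7, 11, 34 and 62 cells). Of 1730 genes tested, 10 were higher in the CD4 cells (0.578%) and 17 were lower (0.983%). Of these 27 genes 24 had the same sign in all 4 libraries, and for 15 the gates did not overlap, as for 6.53% of all genes tested. Without aged meninges edgeR called 0 genes higher and 1 lower, with 133 at an unadjusted p under 0.05. DESeq2 called 9 of the 27 and edgeR without the library block 5. Ccl5 was at 5923, 4730, 10099 and 8164 CPM in the CD8 cells against 2548, 1855, 1858 and 2176 CPM (-1.88 ± 0.16, edgeR adjusted p = 5.94e-06). Each CD8 library was above each CD4 library.

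The granule genes that rose over the Cxcr3-negative CD4 cells were below the CD8 cells. Nkg7 reached 1321, 1322, 2800 and 1976 CPM there (-1.75 ± 0.26, edgeR adjusted p = 0.00303) and Ctsw 1094, 712, 713 and 782 CPM (-1.01 ± 0.17, edgeR adjusted p = 0.00655). Klrd1, a chain of an inhibitory killer receptor (-2.37), Gzmb, which encodes granzyme B (-3.29, edgeR adjusted p = 0.0281), and Cd7 (-2.51) fell too. Gzmb was lower in 3 of 4 libraries, since the CD8 cells of young meninges had none. Of 7 tested cytotoxic genes 4 were lower, with a median of -1.40. Xcl1 (-2.78) and Ccl4 (-2.42) joined Ccl5 as the 3 called genes of 9 tested in the Th1 list, with 86 of the 198 Xcl1 UMIs of the CD8 cells in 1 cell.

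Ly6c2 was at 729, 966, 797 and 471 CPM in the CD8 cells, above the CD4 cells in 3 of 4 libraries, and did not pass the test (-0.97 ± 0.25, edgeR adjusted p = 0.0625), although it did without young meninges (-1.34, edgeR adjusted p = 0.000213). Tbx21 could be tested here (-0.32 ± 0.59, edgeR adjusted p = 0.888), with an error too wide to tell the gates apart. Tnfrsf4 was higher in the CD4 cells (3.20 ± 0.56, edgeR adjusted p = 0.00655), and the CD8 cells had it only in aged CP (7 UMIs). It was the 1 called gene of 3 tested in the regulatory T cell list, and Izumo1r and Icos were the 2 called of 5 tested in the follicular helper and exhaustion list. Izumo1r (2.63), the costimulatory receptor gene Icos (2.16, edgeR adjusted p = 0.0369), the actin-capping gene Capg (1.84) and Tspan13 (1.36) were higher in each library. Ly6a (1.25 ± 0.16, edgeR adjusted p = 0.000894) and Ifi27l2a (1.04 ± 0.20, edgeR adjusted p = 0.0118) were the 2 called of 11 interferon-stimulated genes. Of the 17 lower genes, 6 encoded ribosomal proteins.

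**Figure D4:**
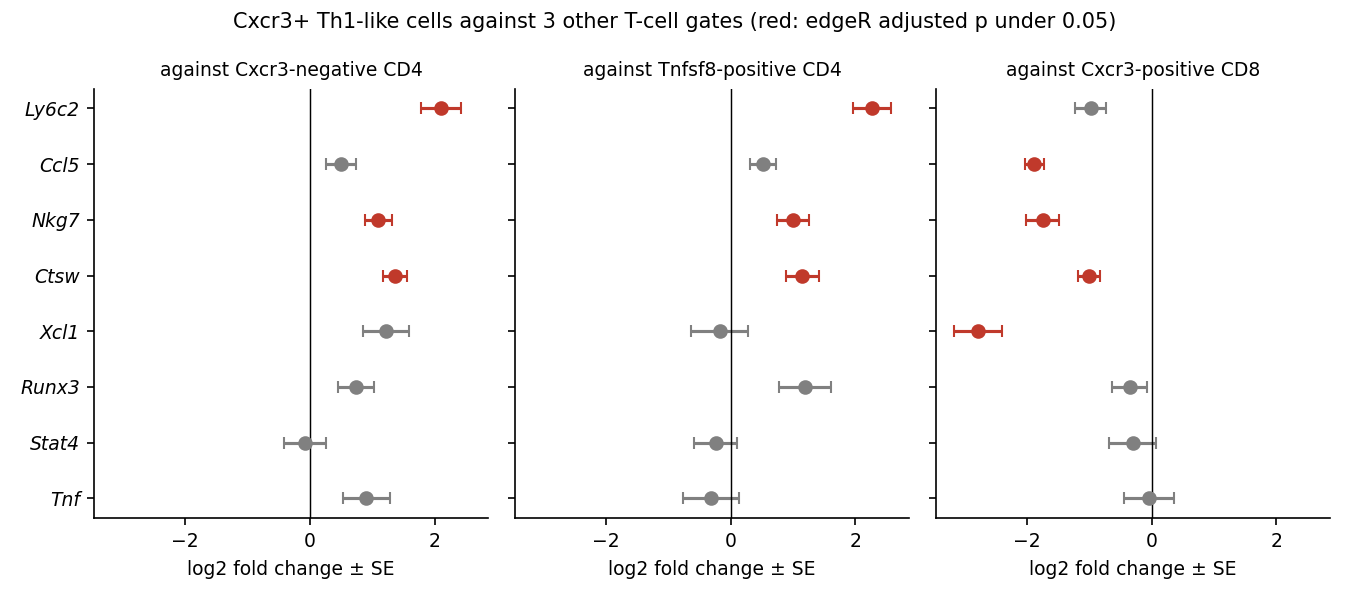
Log2 fold change ± SE of Cxcr3+ Th1-like cells over 3 other gates for 8 genes, with red points where the edgeR adjusted p was under 0.05. Ly6c2, Nkg7 and Ctsw lay above 0 against both CD4 gates, while Ccl5, Nkg7, Ctsw and Xcl1 lay below 0 against Cxcr3+ CD8 T cells.

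Within the Cxcr3+ Th1-like cells, the aged and the young library of each tissue were set side by side. Only genes with at least 20 UMIs over both ages were read, and a difference was counted when the log2 ratio of (CPM + 20) was 1 or more in size. In meninges 76 of 2260 genes were higher with age (3.36%) and 69 were lower (3.05%). In CP 21 of 934 were higher (2.25%) and 34 were lower (3.64%). Of 929 genes with enough UMIs in both tissues, 0 were higher in both (0%) and 2 were lower in both (0.215%), namely Ly6c2 and the receptor gene Trbv15, which is named here after its values were seen. No replicate libraries stand behind these ratios, so spread between pools of mice could not be set against them.

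Ly6c2 had 101 UMIs (946 CPM) in young and 66 UMIs (333 CPM) in aged meninges, a log2 ratio of -1.45 (exact 95% interval of the count ratio -1.98 to -1.04). In CP it was at 27 UMIs (501 CPM) and 13 UMIs (148 CPM), a log2 ratio of -1.63 (-2.84 to -0.75). Few cells carried these counts. In CP they came from 3 young and 4 aged cells. A single cell held 27 of the 66 UMIs in aged meninges, 10 of the 27 in young CP and 6 of the 13 in aged CP, and without that cell the levels were 197, 315 and 79.7 CPM. When cells with a marker of another cell type were left out, the log2 ratio was -1.68 in meninges and -0.13 in CP.

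The other markers differed in direction. In meninges Tbx21 was at 131 CPM when young and at 50.5 CPM when aged (-1.10), and in CP it had 3 and 2 UMIs, too few to read. With a pseudocount of 50 CPM its ratio in meninges was -0.85, short of 1 in size. After thinning it had under 20 UMIs there. Ccl5 was at 2548 and 1858 CPM in meninges (-0.45) and at 1855 and 2176 CPM in CP (0.23). Both directions rested on single cells. Without the highest cell of each library, Ccl5 was at 1462 and 1636 CPM in meninges and at 1280 and 923 CPM in CP. In meninges Ifng went from 93.7 CPM to 167 CPM with age (0.72, interval -0.22 to 2.02, which includes no change). Its ratio ran from 0.30 after thinning, with under 20 UMIs left, to 1.77 without cells that had a marker of another cell type, so whether it passed depended on the cells kept. Of 13 measured genes of the Th1 list in meninges, 0 passed the ratio upwards and 4 passed it downwards, namely Ly6c2, Tbx21, Xcl1 and Ccl4, and the median of the list was 0.02 beside -0.05 over all genes. Tbx21 (14 and 10 UMIs), Xcl1 (16 and 12) and Ccl4 (14 and 11) reached 20 UMIs only with both ages together. For Ccl4 the interval was -2.52 to 0.006, which includes no change, and 11 of its 25 UMIs lay in 1 cell.

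The genes below were picked from the lists after their values were seen. No count of the residency list is read. Its genes past the ratio upwards in meninges reached 20 UMIs only through the aged library. They were Tnfaip3, an inhibitor of NF-κB signalling (11 and 48 UMIs, 1.09), and Cd69, which holds T cells in tissue (5 and 24 UMIs, 1.08), the first with 0 and 1 UMIs in CP and the second with 2 and 2. Other genes had negative ratios. In meninges Nkg7 went from 721 to 394 CPM (-0.84), Il2rb from 750 to 359 CPM (-1.02) and Cxcr6 from 778 to 449 CPM (-0.76). In CP the same ratios were -0.43, -0.72 and 0.41, so Cxcr6 differed in direction between the tissues.

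Cells with Foxp3 had been left out, and 3 genes of the regulatory T cell list passed the ratio upwards with age in meninges. They reached 20 UMIs only through the aged library, with 3 and 38 UMIs for Ikzf2, 6 and 48 for Tnfrsf4 and 2 and 30 for Ctla4, while Nrp1 (6 and 13) and Il2ra (2 and 6) stayed below it, so no count or median of the list is read. Ikzf2, which encodes the transcription factor Helios, went from 28.1 to 192 CPM in meninges (2.14), with a UMI in 2 of 29 cells when young and in 24 of 78 when aged. Tnfrsf4 went from 56.2 to 242 CPM (1.78), in 5 and 25 cells. Ctla4 went from 18.7 to 151 CPM (2.15), with 14 of its 30 aged UMIs in 1 cell. Tnfrsf18, the costimulatory receptor GITR, did not pass the ratio and was at 347 and 217 CPM (-0.63). In CP Tnfrsf18 was the 1 measured gene of the list (-0.17), and the 3 genes that passed in meninges had under 20 UMIs over both ages, with 1 young and 13 aged UMIs for Ikzf2 and 1 and 18 for Tnfrsf4.

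Among interferon-stimulated genes in meninges, Isg15, a ubiquitin-like modifier, had 27 and 109 UMIs and went from 253 to 550 CPM (1.06). Irf7, a transcription factor of the interferon response, with 15 and 69 UMIs (1.20), Rtp4 with 7 and 31 (1.04) and Ifit1 with 1 and 24 (2.27) also passed the ratio upwards but reached 20 UMIs only through the aged library. Irf1 passed it downwards, with 22 and 18 UMIs (-1.03). For this reason no count of the list is read. In CP Bst2, which encodes tetherin, had 4 and 17 UMIs (1.18, interval -0.23 to 3.41, which includes no change), and in meninges it did not pass (0.73). Also in CP, Isg15 had 1 and 9 UMIs, Irf7 had 4 and 2 and Ifit1 had none, while Ifi27l2a was at 2170 and 1891 CPM (-0.20) against 2164 and 3550 CPM in meninges (0.71).

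No count or median of the effector memory list is read either. Its genes past the ratio upwards reached the UMI limit for reading a gene only through the aged library. The gene that passed upwards in meninges was Maf, a transcription factor, at 103 and 237 CPM (1.06), from 11 and 47 UMIs, with 3 and 15 UMIs in CP. In CP it was Il7r, the receptor chain for interleukin-7, at 352 and 889 CPM (1.29), from 19 and 78 UMIs. Il7r did not pass in meninges at 487 and 894 CPM (0.85). Vim (0.70 in meninges and 0.67 in CP), S100a6 (0.74 and 0.43) and Ahnak (0.94 and 0.87) did not pass it in either tissue. Il2rb was the gene that passed downwards in meninges (-1.02), and not in CP (-0.72), and Anxa2 passed in neither (-0.38 and -0.24). Nor did the residency gene Itgb1 (-0.42 and -0.62). Il17a was read only in aged meninges, where its 26 UMIs all came from 1 cell.

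**Figure D5:**
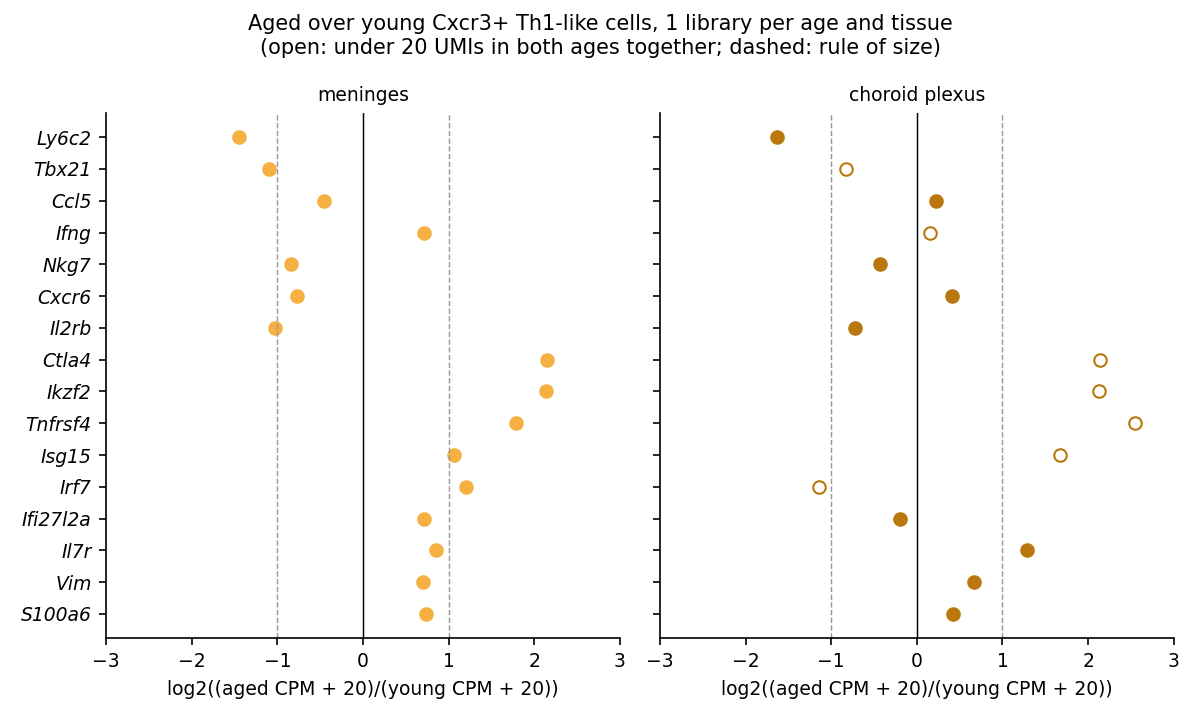
Log2 ratio of aged over young (CPM + 20) in Cxcr3+ Th1-like cells of meninges (left) and CP (right) for 16 genes, 1 library per age and tissue. Open points had under 20 UMIs over both ages, and the dashed lines mark a ratio of 1 in size, which Ly6c2 passed downwards in both tissues at -1.45 and -1.63.

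Markers of other cells were read in the same sums. Of 5 B-cell genes, Ighm was the most abundant with 25, 5, 24 and 16 UMIs in the 4 libraries, while Ms4a1 was at 0 in all. The list summed to 244, 92.7, 126 and 194 CPM in Cxcr3+ Th1-like cells and to 190, 271, 175 and 218 CPM in the counterpart. Of 4 natural killer (NK) cell genes, Klre1 and Klrb1c gave 7, 0, 2 and 0 UMIs, and Ncr1 and Klra8 were at 0, while Zbtb16, a transcription factor of NK T cells, gave 2, 0, 3 and 0 UMIs. In the counterpart the NK list gave 7, 0, 2 and 1 UMIs and Zbtb16 gave 2, 0, 0 and 0. Cells with an NK, NK T or γδ T cell marker were 7 of 29 in young meninges, 0 of 16 in young CP, 2 of 78 in aged meninges and 0 of 27 in aged CP, and each of these 9 cells had Ly6c2. Without them Ly6c2 was in 36.4% of cells of young and 9.21% of aged meninges, Tbx21 in 36.4% and 11.8% and Nkg7 in 72.7% and 36.8%. The log2 age ratio in meninges was then -1.10 for Ly6c2 and -1.09 for Tbx21.

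Genes of γδ T cells gave 1 UMI (Tcrg-C1 in young meninges), those of macrophages 1 (Cd68 in aged meninges), those of CP epithelium 0, 2, 1 and 2, and those of fibroblasts and neutrophils 0. Haemoglobin transcripts were found in 5 and 11 cells of the meninges libraries and in none of CP. Doublet scores were among the highest 5% of their library for 1, 0, 1 and 1 of the cells. The libraries shared 8 cell barcodes, 2 of them of Cxcr3+ Th1-like cells.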

How the data were processed

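T cells of 2 tissues and 2 ages were profiled in 4 droplet libraries. The authors deposited UMI counts per gene and cell (31053 genes), made with Cell Ranger on mouse build mm10. The submitters' processing notes name version 5.1.0 with STAR and the file headers name version 3.1.0. The study's methods filtered cells at 200 to 7000 genes and 5% mitochondrial transcripts and removed doublets with DoubletFinder. The deposited counts hold cells outside these limits, so the limits were applied again, which kept 1035 cells of 1111 in young meninges, 631 of 718 in young CP, 1436 of 1695 in aged meninges and 1106 of 1277 in aged CP. The files held 3737140, 2295950, 4262917 and 3957717 UMIs.

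The cells and the gene lists were chosen with earlier results of these data known. Genes are named by a rule: the Th1 list, the most abundant called genes of each list (at most 5), and the called genes of the same sign in all libraries with the largest and smallest fold changes (10 each against the counterpart, 5 each otherwise). Genes of ribosomal proteins, mitochondria, immunoglobulins and T cell receptors are not named by size, and some genes that the rule or the lists name are not reported here.

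UMIs were summed per library and gate and tested with edgeR 4.0.16 in R 4.3.3 (glmQLFit and glmQLFTest, TMM, filterByExpr, library as a block, 8 sums a comparison, Benjamini-Hochberg over all genes tested). The 11 genes of the gates were left out of the tests. The script was tested on simulated data. Ages were compared without a test as log2((aged CPM + 20)/(young CPM + 20)). Intervals are exact at 95% and cover counting error only. Doublets were not removed here. Cells were thinned to 1000 UMIs where shares depend on depth. Alternatives were DESeq2 1.42.0, RLE size factors, no filter on low counts, each library left out, no block, other depths, stricter Cxcr3 and cell filters, other pseudocounts, and no exclusions. Python 3.11.15 with scanpy 1.11.5 was used for counting. Gene positions come from GENCODE on GRCm38.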

Additional observations from a re-analysis of the deposited data

Results flagged for a closer look

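In Cxcr3+ Th1-like cells, 39 of the 929 genes that could be read in meninges and in CP had an age ratio whose counting interval left out 0 in both. For 6 of these the ratio had opposite signs in the 2 tissues. With 1 library per age and tissue, the difference between the tissues was not tested. The 5 of them that are not T cell receptor genes follow. Tmsb4x, an actin-binding peptide gene, had a log2 ratio of aged over young of -0.15 in meninges and 0.15 in CP. Eef2, a translation elongation factor, was at -0.55 in meninges and 0.56 in CP. Ndufa13, a subunit of respiratory complex I, was at 0.54 in meninges and -0.78 in CP. AY036118 was at -0.96 in meninges and 0.66 in CP. AW112010, which was higher in Cxcr3+ Th1-like cells than in their Cxcr3-negative counterpart, was at -0.24 in meninges and 0.38 in CP.

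T cells with no UMI of Cd4, Cd8a or Cd8b1 entered no comparison, yet many had Cxcr3. With a Cxcr3 UMI and none of the 4 excluded genes there were 51 of 485 such cells in young meninges (10.5%, exact 95% interval 7.93 to 13.6), 25 of 275 in young CP (9.09%, 5.97 to 13.1), 121 of 735 in aged meninges (16.5%, 13.9 to 19.3) and 48 of 358 in aged CP (13.4%, 10.1 to 17.4). A count of 0 would allow a share of up to 0.619%, 1.09%, 0.408% and 0.838%. How many of these cells were CD4 T cells whose Cd4 transcript was missed was not tested.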

How the results depend on the processing

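Against the Cxcr3-negative counterpart, 17 genes were higher and 23 lower. These counts were 2 and 1 with DESeq2, 30 and 38 in cells of 2000 to 5000 UMIs, 11 and 6 after thinning each cell to 1000 UMIs, 6 and 4 without cells that had a marker of another cell type, 11 and 14 with at least 2 Cxcr3 UMIs, and 0 and 2 against counterpart cells with S100a4 (107 at an unadjusted p under 0.05). With no filter on low counts 50 were lower. The lowest and highest counts with 1 library left out were 7 and 27 for higher genes and 7 and 28 for lower genes. Without young meninges 7 were higher and 7 lower, and 11 of the 40 genes were still called. Without young CP the counts were 27 and 18, and without aged meninges 13 and 10.

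Against Tnfsf8+ CD4 T cells, 11 genes were higher and 21 lower. These counts were 3 and 0 with DESeq2 (57 at an unadjusted p under 0.05), 4 and 5 in cells of 2000 to 5000 UMIs, 0 and 1 after thinning (26 at an unadjusted p under 0.05), 1 and 3 without cells that had a marker of another cell type, and 7 and 5 with at least 2 Cxcr3 UMIs. With no filter 24 were higher. With 1 library left out the counts ran from 4 to 13 for higher and from 3 to 14 for lower genes, and were 4 and 3 without young meninges, 5 and 14 without young CP, 7 and 10 without aged meninges and 13 and 10 without aged CP.

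Against Cxcr3+ CD8 T cells, 10 genes were higher and 17 lower. These counts were 2 and 7 with DESeq2, 18 and 10 in cells of 2000 to 5000 UMIs, 4 and 5 after thinning, 5 and 7 without cells that had a marker of another cell type, and 1 and 2 with at least 2 Cxcr3 UMIs. With no filter 20 were higher. Without cells that had an NK, NK T or γδ T cell marker, an alternative chosen after seeing the data, 8 were lower. With 1 library left out the counts ran from 0 to 14 for higher and from 1 to 13 for lower genes, and were 0 and 1 without aged meninges (edgeR, 133 at an unadjusted p under 0.05), 4 and 9 without aged CP and 8 and 12 without young CP.

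The library block pairs sums of the same library. With edgeR and no replicate block, the counts of higher and lower genes were 0 and 2 against the counterpart (161 at an unadjusted p under 0.05), 0 and 0 against Tnfsf8+ cells (83) and 1 and 4 against CD8 cells (129). In each of these settings, every called gene that could be tested again kept its direction. Klf2 against the counterpart was called in 15 of 15 settings and Ccl5 against CD8 cells in 14 of 14. Among called genes with lost calls, Ly6c2 held in 12 of 15 settings against the counterpart and in 12 of 13 against Tnfsf8+ cells, and Ifng held in 5 of 8.

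The aged minus young share of CD4 T cells, naive-like cells included, was 10.4 points in meninges. It was 4.07 with at least 2 Cxcr3 UMIs, 2.70 as a share of all T cells and 27.9 without the exclusions. In CP it was 2.05 points, and reversed to -0.0951 as a share of all T cells, while it was 20.005 without the exclusions. Of genes past the age ratio in both tissues, 0 were higher and 2 lower. With a pseudocount of 5 CPM 2 were higher, without cells that had a marker of another cell type 1 was, and without the exclusions 21 were higher and 4 lower. With at least 40 UMIs 1 was lower, after thinning 0 of 258 were, and without NK, NK T or γδ markers 1 was.

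The 4 libraries, with 16 to 78 Cxcr3+ Th1-like cells each, limit these results. Small libraries set wide counting intervals, T cells in which a gene was missed enter the wrong gate, and 1 library per age and tissue gives no spread between mice. The causes of the changes above were not tested.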

Other observations

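The variable genes of the T cell receptor beta chain in Cxcr3+ Th1-like cells were counted per cell, as the gene with the most UMIs in each, beside the comparisons of summed UMIs, in which single Trbv genes were also tested. A Trbv transcript was found in 28 of 29 cells of young meninges, 15 of 16 of young CP, 73 of 78 of aged meninges and 25 of 27 of aged CP. Trbv13-2 was the most frequent in young meninges, in 9 of 28 cells (32.1%, exact 95% interval 15.9 to 52.4), and in aged meninges, in 12 of 73 (16.4%, 8.79 to 27.0). In young CP it was Trbv20, in 3 of 15 cells (20%), and in aged CP Trbv3, in 6 of 25 (24%, 9.36 to 45.1). The cells of each library used 10 to 18 Trbv genes. In the Cxcr3-negative counterpart Trbv13-2 led in all 4 libraries, at 17.2%, 23.5%, 14.9% and 16.7% of cells with a Trbv transcript.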
